A study of Homo sapiens with 8 samples.

Results

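The genes described here are ribosome biogenesis factors of WT and XRN1-null HEK293T cells, chosen by symbol from a table of read counts for 10105 genes. The symbols had to begin with UTP, RRP, NOP, NOL or NOC and a digit, with POLR1 or TSR, or with BMS1, BOP1, DKC1, FBL, GAR1, IMP3, IMP4, NCL, NHP2, PES1 or RRS1. This matched 61 rows, of which 5 were left out, namely the pseudogenes BMS1P4 and BMS1P20 and the unrelated FBLIM1, FBLN1 and FBLN5. The remaining 56 genes are the members. By textbook role they comprise 5 subunits of RNA polymerase I, nucleolin, 3 box C/D and 4 H/ACA snoRNP core proteins, 27 small-subunit factors and 14 large-subunit factors. A further 2 genes matched by their letters only. NCLN encodes nicalin, a membrane protein of the endoplasmic reticulum, and RRP7BP is a near copy of RRP7A that the annotation lists as a long non-coding RNA. The rule itself uses symbols only.

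Ribosomes are assembled in the nucleolus, where RNA polymerase I transcribes a long precursor of the ribosomal RNAs. Small nucleolar RNAs with their core proteins guide methylation (box C/D) and pseudouridylation (H/ACA) of this precursor, while a large assembly called the small-subunit processome and a separate series of particles fold, cleave and trim it around newly imported ribosomal proteins. The genes of this pathway are among the classical targets of growth control, and many are known to be activated by MYC through a short promoter motif, the E-box. XRN1 is the main cytoplasmic exonuclease that degrades decapped mRNA from its 5′ end.

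HEK293T is an established human embryonic kidney line that carries the SV40 large T antigen. The groups were unedited WT cells and XRN1-null cells, in which CRISPR/Cas9 editing left a frameshifting deletion in a coding exon of XRN1. Both were harvested 24 h after plating, with no treatment. The null genotype is represented by 1 edited line, and whether it was a single clone is not given in the sources used here, so loss of XRN1 and other features of that line cannot be told apart. RNA-Seq (mRNA abundance) and Ribo-Seq (ribosome-protected fragments, RPF) were each done on 2 biological replicates per genotype, giving 8 libraries. The RNA-Seq libraries held 33757487 to 38145433 counts, and the Ribo-Seq libraries 1921641 to 4399542. No member had fewer than 534 reads in an RNA-Seq library or 48 in a Ribo-Seq library, so the footprint values rest on far fewer reads. Values per library are CPM, read counts scaled to the TMM-adjusted size of each library, and changes are log2 fold changes of XRN1-null over WT ± SE. Translational efficiency (TE) divides a gene's footprints by its mRNA.

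The labels were checked on the edited gene itself. XRN1 mRNA was at 33.5 and 33.0 CPM in the WT libraries and at 282 and 253 CPM in the XRN1-null libraries. XRN1 footprints were at 34.4 and 49.8 CPM in WT and at 22.6 and 18.4 CPM in XRN1-null cells. The groups did not overlap in either assay, with mRNA higher and footprints lower in the XRN1-null libraries. VIM, KRT8, KRT18, NEFM and LIN28B, which are commonly expressed in HEK293T cells, all had reads in every library, with the lowest value at 15.9 CPM (KRT8).

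Before any comparison of genotypes, the WT replicates were found to differ from each other in the genes of interest. Of the 56 members, 44 had more mRNA in WT replicate 2 than in WT replicate 1, against 49.9% of all genes, with a median log2 ratio of 0.14. In WT footprints 41 of 56 were higher in replicate 2, against 49.6% of all genes, with a median of 0.21. The XRN1-null replicates had medians of 0.02 in mRNA, with 41 of 56 higher in replicate 2 against 47.8% of all genes, and 0.01 in footprints, with 29 of 56 against 52.1%. Thus the sign of the mRNA tilt was shared by most members in both genotypes, with smaller ratios in XRN1-null cells. The same tilt was present in 111 other biogenesis genes (86 higher in WT replicate 2 in mRNA and 87 in footprints), and the 78 ribosomal protein genes tilted the opposite way (5 of 78 in mRNA and 14 of 78 in footprints). Nucleolin (NCL), an abundant RNA-binding protein of the nucleolus, had the largest difference among the members, at 0.67 in WT mRNA and 0.83 in WT footprints. The labels do not say what distinguishes the replicates, and the source of the difference was not tested. Because each genotype has only these replicates, counts of changed members are given below with and without single libraries. Such fits assume that the lone library left in a group varies like the other groups. Their calls therefore do not measure the spread within that group.

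**Figure D1:**
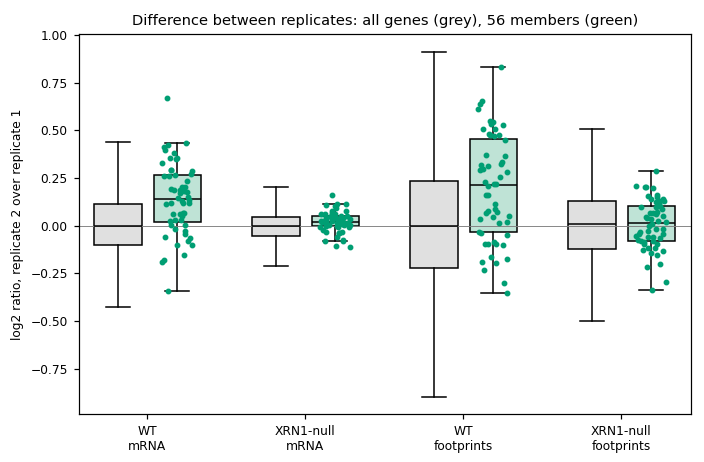
Log2 ratio of replicate 2 over replicate 1 (vertical axis) for all genes (grey boxes) and the 56 members (green boxes and points) in each genotype and assay. Boxes span the quartiles with the median as a line, and whiskers reach the last value within 1.5 box lengths. The green medians of the WT libraries sit above 0 (0.14 in mRNA and 0.21 in footprints), and those of the XRN1-null libraries sit close to it.

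The members were well expressed. Their median WT mRNA level was 37.2 CPM per kb of deposited gene width, compared with 15.0 CPM per kb over all genes. The highest levels per kb belonged to snoRNP proteins and nucleolin, with 410 for NHP2, 277 for FBL, 262 for NCL, 190 for NOP56 and 177 for NOP10. NOL9 (6.39 CPM per kb) and UTP20 (6.51 CPM per kb) were the lowest. The footprint to mRNA ratio in WT cells was also above that of most genes, with a median of 0.33 on the log2 scale relative to the median gene, and 39 of the 56 members were above 0. This value was 0.18 without WT Ribo-Seq replicate 2 and 0.43 without WT Ribo-Seq replicate 1. NOL9, a polynucleotide kinase needed to process the large-subunit precursor RNA, had a ratio of 2.13, and TSR3, an enzyme that modifies the small-subunit RNA, had the lowest at −0.97. The highest ratio was that of the non-coding RRP7BP, at 2.41, but its reads are uncertain between it and its near copy RRP7A.

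In mRNA, members of every biogenesis role with more than 1 gene went both ways, except the H/ACA proteins, which held 2 fallers and no riser. At an FDR below 0.005 in edgeR's quasi-likelihood test, 17 of 56 members (30.4%) were higher in XRN1-null cells, where 22.9% of all genes were, and 10 (17.9%) were lower, where 23.2% of all genes were. The other 29 did not pass the test. In these bulk libraries, a lower level in every cell and fewer cells that express a gene cannot be told apart. The median log2 change was 0.20 for the members and −0.01 for all genes. In 30 members both XRN1-null libraries lay above both WT libraries (41% of all genes), in 17 both lay below (43.7% of all genes), and in 9 the groups overlapped. The counts moved with single libraries. Without WT RNA-Seq replicate 2, 32 members were called higher and 12 lower, while 33.7% and 33.5% of all genes were. Without WT RNA-Seq replicate 1, 23 were called higher and 15 lower (31.6% and 30.8% of all genes). Leaving out XRN1-null replicate 1 or 2 gave 13 higher in each case (16.2% and 16.3% of all genes), with 4 and 5 lower (11% and 10.9% of all genes). Within the libraries numbered 1 the median change was 0.23, and within those numbered 2 it was 0.06. The median was 0.09 without WT RNA-Seq replicate 1.

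**Figure D2:**
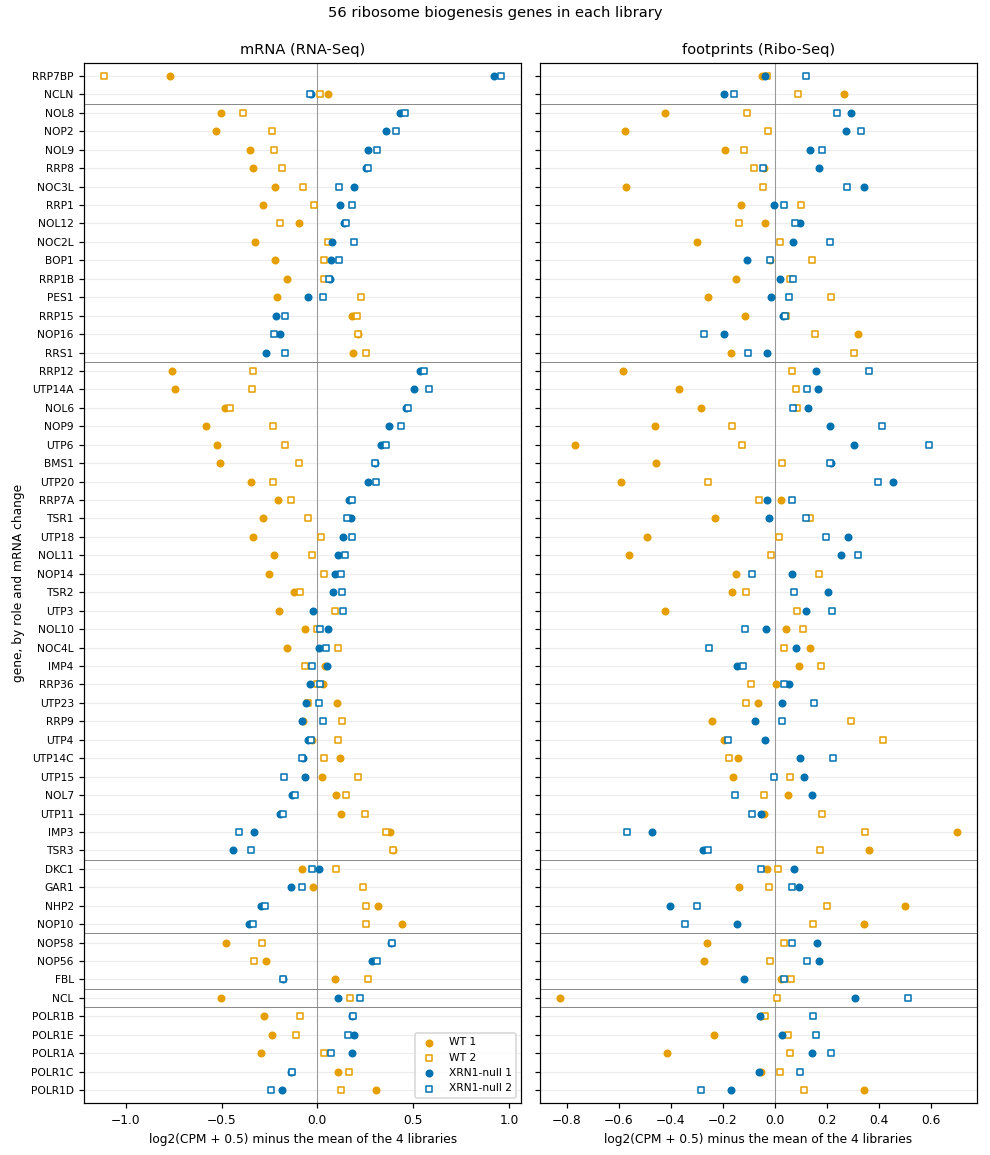
Each member's level in the 4 RNA-Seq libraries (left) and the 4 Ribo-Seq libraries (right), as log2(CPM + 0.5) minus the mean of the 4 libraries, with genes grouped by role and ordered by mRNA change. WT libraries are orange, XRN1-null libraries blue, replicate 1 filled circles and replicate 2 open squares. In mRNA the blue symbols of RRP7BP, RRP12, UTP14A and NOL6 lie right of the orange ones, those of TSR3, IMP3 and NOP10 lie left, and in footprints the groups overlap for 21 of the 56 genes.

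Of the 5 RNA polymerase I subunits, 2 were called higher (40%) and 1 lower (20%), where 22.9% and 23.2% of all genes were. POLR1B, the second-largest subunit, had 94.6 and 107 CPM in WT and 130 and 131 CPM in XRN1-null cells, a change of 0.37 ± 0.08 (FDR 0.0039). POLR1D, a small subunit shared with RNA polymerase III, fell from 147 and 130 CPM to 104 and 100 CPM, a change of −0.43 ± 0.08 (FDR 0.0018). Neither gene's groups overlapped, although both lost the call when either XRN1-null library was left out, with FDR values from 0.013 to 0.034. POLR1E, which helps the enzyme engage DNA, also rose (0.35 ± 0.07, FDR 0.0030). The catalytic subunit POLR1A was at 78.6 and 98.8 CPM in WT and 109 and 101 CPM in XRN1-null cells and did not pass (0.25 ± 0.11, FDR 0.075). Its value was 0.42 without WT replicate 2. The other shared subunit, POLR1C, had a value of −0.28 ± 0.06 and just missed the threshold (FDR 0.0064).

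Nucleolin mRNA differed more between the WT replicates than between the genotypes. NCL mRNA was at 549 and 874 CPM in WT and 840 and 909 CPM in XRN1-null cells, so WT replicate 2 lay among the XRN1-null libraries and the change of 0.30 ± 0.19 did not pass (FDR 0.19). Without WT replicate 2 the value was 0.67. Its footprints were at 517 and 923 CPM in WT and 1139 and 1309 CPM in XRN1-null cells. Here the groups did not overlap, with a difference of 0.76 ± 0.21 that did not pass the threshold either (FDR 0.033). It was 0.41 without WT Ribo-Seq replicate 1 and 1.25 without WT Ribo-Seq replicate 2. Without XRN1-null Ribo-Seq replicate 1 or 2 it was 0.86 and 0.66, and it did not pass with DESeq2 (FDR 0.29).

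Within the snoRNP core proteins, proteins of the same particle went different ways. NOP56 and NOP58 are the paired scaffold proteins of box C/D particles. NOP56 mRNA rose from 427 and 408 CPM in WT to 625 and 637 CPM in XRN1-null cells (0.60 ± 0.06, FDR 1.3e-04), and NOP58 from 169 and 192 CPM to 307 and 308 CPM (0.77 ± 0.08, FDR 1.2e-04). Fibrillarin (FBL), the methyltransferase that acts in the same particle, was lower, with 303 and 341 CPM in WT and 252 and 252 CPM in XRN1-null cells (−0.36 ± 0.07, FDR 0.0038). The groups did not overlap for any of the 3, but the FBL call was lost with scaling by library totals (FDR 0.0067), with a minimum of 10 counts per library (FDR 0.0053) and without either XRN1-null library (FDR 0.052 and 0.051). None of the 4 H/ACA proteins was called higher and 2 (50%) were called lower, where 22.9% and 23.2% of all genes were. NOP10, the smallest of them, fell from 101 and 88.6 CPM to 57.9 and 58.7 CPM (−0.70 ± 0.08, FDR 2.0e-04), and NHP2 from 357 and 343 CPM to 234 and 237 CPM (−0.57 ± 0.06, FDR 1.7e-04). The pseudouridine synthase of the complex, dyskerin (DKC1), had overlapping groups at 262 and 295 CPM in WT and 279 and 272 CPM in XRN1-null cells (−0.02 ± 0.08, FDR 0.84), and GAR1 had a value of −0.22 ± 0.09 (FDR 0.064).

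Small-subunit factors held the largest rises among protein-coding members. RRP12, a repeat protein that accompanies the precursor of the small subunit out of the nucleus, had 52.2 and 70.1 CPM in WT and 128 and 131 CPM in XRN1-null cells. Its change was 1.08 ± 0.13 (FDR 2.2e-04), a 2.12-fold increase. UTP14A, which activates a helicase of the small-subunit processome, went from 48.8 and 64.5 CPM to 117 and 123 CPM (1.08 ± 0.12, FDR 2.0e-04). In both genes WT replicate 1 was the lowest library, and the XRN1-null replicates were close to each other. NOL6, a scaffold protein of the processome, was more even, with 79.0 and 80.4 CPM in WT and 153 and 153 CPM in XRN1-null cells (0.94 ± 0.06, FDR 1.9e-05). NOP9, an RNA-binding factor that guards the cleavage site of the small-subunit RNA, rose from 48.5 and 62.0 CPM to 94.6 and 98.7 CPM (0.81 ± 0.11, FDR 4.9e-04). The GTPase BMS1, at 107 and 143 CPM in WT and 188 and 187 CPM in XRN1-null cells, rose by 0.59 ± 0.12 (FDR 0.0038). UTP20, a very large scaffold protein, rose from 56.3 and 61.0 CPM to 86.1 and 88.7 CPM (0.58 ± 0.07, FDR 2.5e-04). All of these had both XRN1-null libraries above both WT libraries, and among these 6 only BMS1 lost its call under any alternative run, when either XRN1-null library was left out (FDR 0.0079 and 0.0075). UTP6 (0.68 ± 0.11) and RRP7A (0.34 ± 0.06) made up the 8 risers of this role, 29.6% of its 27 genes, where 22.9% of all genes rose.

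The 3 fallers of this role (11.1% of its 27 genes, where 23.2% of all genes fell) were TSR3, IMP3 and UTP11. TSR3 mRNA went from 90.0 and 90.1 CPM in WT to 50.2 and 53.6 CPM in XRN1-null cells (−0.79 ± 0.07, FDR 5.0e-05). IMP3, a core protein of the U3 snoRNP that pairs the guide RNA with the precursor, went from 124 and 123 CPM to 76.0 and 71.9 CPM (−0.74 ± 0.06, FDR 6.3e-05). Replicates of each genotype were close for both, and the groups stood well apart. UTP11 had a change of the same sign (−0.38 ± 0.07, FDR 0.0020). The 16 small-subunit factors that did not pass ranged from −0.25 (NOL7) to 0.33 (TSR1). In order of value they were NOL7, UTP15, UTP14C, UTP4, RRP9, UTP23, RRP36, IMP4, NOC4L, NOL10, UTP3, TSR2, NOP14, NOL11, UTP18 and TSR1. IMP4, the partner of IMP3 in the U3 snoRNP, was among them at 0.02 ± 0.07. UTP14C, a retrocopy of UTP14A, was at 55.3 and 52.3 CPM in WT and 48.5 and 48.2 CPM in XRN1-null cells (−0.15 ± 0.06, FDR 0.065), the opposite side of 0 from UTP14A. Reads of these near-identical genes, and of UTP14C and the overlapping ALG11, could be split between them in counting, which makes the UTP14C value uncertain.

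Of the 14 large-subunit factors, 4 were called higher (28.6%) and 3 lower (21.4%), near the 22.9% and 23.2% of all genes. NOL8 rose from 62.8 and 68.2 CPM in WT to 120 and 123 CPM in XRN1-null cells (0.89 ± 0.07, FDR 3.7e-05). NOP2, an RNA methyltransferase of the large subunit, rose from 79.3 and 97.2 CPM to 147 and 153 CPM (0.77 ± 0.10, FDR 3.5e-04). NOL9 (0.58 ± 0.07) and the methyltransferase RRP8 (0.52 ± 0.08) were the other 2 risers, and in all 4 the groups did not overlap. RRS1, which brings the 5S particle into the large subunit, fell from 62.5 and 65.4 CPM to 45.4 and 48.8 CPM (−0.44 ± 0.07, FDR 8.9e-04), and missed the threshold without XRN1-null replicate 1 (FDR 0.017). NOP16 (−0.43 ± 0.06) and RRP15 (−0.39 ± 0.06) were also lower. BOP1 and PES1 form a complex that drives maturation of the large-subunit RNA. Neither passed the test, with 117 and 140 CPM in WT and 144 and 148 CPM in XRN1-null cells for BOP1 (0.18 ± 0.09, FDR 0.11), and 145 and 196 CPM in WT and 162 and 171 CPM in XRN1-null cells for PES1 (−0.04 ± 0.13, FDR 0.82). The PES1 groups overlapped, since WT replicates 1 and 2 lay on either side of both XRN1-null libraries. Its direction turned with them, at −0.22 without WT replicate 1 and 0.20 without WT replicate 2. BOP1 was at 0.31 without WT replicate 2. The other 5 that did not pass, RRP1B, NOC2L, NOL12, RRP1 and NOC3L, ranged from 0.12 to 0.30.

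The largest mRNA change of all members was that of RRP7BP, from 20.8 and 16.3 CPM in WT to 68.0 and 70.0 CPM in XRN1-null cells. This is 1.90 ± 0.11 on the log2 scale (FDR 1.3e-05), or 3.72-fold. RRP7BP lies on chromosome 22 (GRCh37, 42951218 to 42978045, minus strand), close to its coding relative RRP7A (42904350 to 42915802, minus strand), whose mRNA was at 216 and 226 CPM in WT and 278 and 282 CPM in XRN1-null cells. Reads of these near copies are uncertain between them. BMS1P4, a copy of BMS1 left out by the rule, had a value of 2.00 ± 0.13, and BMS1P20, the other copy left out, one of −0.23 ± 0.09 (FDR 0.063). Reads of these copies may be split with those of BMS1. NCLN, the other gene that matched by letters, was at −0.07 ± 0.06.

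Gene width moved with these changes. Members with longer deposited widths had the more positive mRNA changes, with a Spearman correlation across genes of 0.44 (n = 56), 0.35 over all 10105 genes and 0.48 over the 111 other biogenesis genes. The genes share the same 4 libraries, so this describes them and is no test. The 17 risers had a median width of 4426 bases (1751 to 9010) and the 10 fallers 1334.5 bases (535 to 7771). Over all genes, those called higher had a median width of 4485 bases and those called lower 2348.5 bases. RRP15 was an exception, at 7771 bases and lower in XRN1-null cells, and the short RRP36 (1159 bases) and TSR2 (1326 bases) did not pass, at −0.02 and 0.21. The correlation of width with the footprint change was 0.43 for the members and 0.31 for all genes. How the authors defined the width is not given in the sources used here, and its part in the result was not tested.

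**Figure D3:**
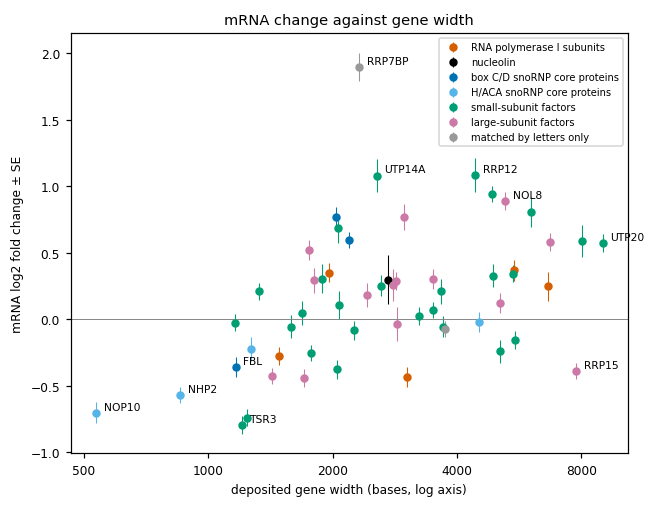
mRNA log2 fold change (XRN1-null over WT, ± SE) of each member against deposited gene width on a log axis, coloured by role. NOP10, NHP2, TSR3 and FBL lie at the short end below 0, UTP20, NOL8 and RRP12 toward the long end above 0, and RRP15 lies low among the long genes.

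Footprints gave few calls. In Ribo-Seq no member passed as higher and 1 passed as lower with edgeR's quasi-likelihood test, where 0.633% of all genes were higher and 1.14% lower. At an unadjusted p below 0.05 there were 12 higher and 7 lower members (16.2% and 16.8% of all genes), and DESeq2 called 1 of each (0.91% and 1.23% of all genes). The median change was 0.09 for the members and −0.00 for all genes. Both XRN1-null libraries lay above both WT libraries in 24 members (32.1% of all genes) and below in 11 (32.3% of all genes). These counts also moved with single libraries. Without WT Ribo-Seq replicate 2, 16 members were called higher and 6 lower (12.7% and 10.8% of all genes), without WT Ribo-Seq replicate 1 there were 5 and 4 (5.82% and 7% of all genes), and without either XRN1-null library there was none in either direction (0.703% to 0.831% of all genes higher and 0.713% to 0.98% lower). The median change without WT Ribo-Seq replicate 2 was 0.18. WT replicate 1 was also the shallowest library, at 1921641 counts.

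IMP3 was the member called lower, with footprints at 132 and 103 CPM in WT and 58.1 and 54.3 CPM in XRN1-null cells. The WT replicates differed, but both were well above the XRN1-null libraries, and the change was −1.04 ± 0.16 (FDR 0.0031). The call was lost without XRN1-null replicate 1 (FDR 0.0071) or replicate 2 (FDR 0.014). IMP3 lies on chromosome 15 (GRCh37, 75931426 to 75941047, minus strand), where an exon of SNX33 overlaps it on the other strand. Next by FDR came UTP20 and NHP2, which follow their mRNA in direction. UTP20 footprints were at 74.5 and 93.9 CPM in WT and 154 and 148 CPM in XRN1-null cells (0.83 ± 0.15, FDR 0.0060), and DESeq2 called it (FDR 0.0023). NHP2 footprints were at 298 and 242 CPM in WT and 159 and 171 CPM in XRN1-null cells (−0.71 ± 0.15, FDR 0.011). The groups did not overlap for either gene. Without WT Ribo-Seq replicate 1 or 2 the values were 0.69 and 1.04 for UTP20 and −0.55 and −0.84 for NHP2. Without XRN1-null Ribo-Seq replicate 1 or 2 they were 0.80 and 0.86 for UTP20 and −0.66 and −0.76 for NHP2. UTP6, with the value 0.83 ± 0.19 (FDR 0.016), was similar to UTP20 in size.

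The 17 members whose mRNA rose all had a positive footprint value, with a median of 0.28, and 9 of the 10 whose mRNA fell had a negative one, with a median of −0.45. For the risers the footprint change was mostly the smaller of the pair. Their median TE change was −0.30, with 15 of 17 below 0, and over all genes called higher in mRNA the median TE change was −0.39, with 84.7% below 0. The fallers had a median TE change of 0.23, with 6 of 10 above 0, and all genes called lower in mRNA one of 0.15, with 72.2% above 0. The mRNA value enters TE with the opposite sign, so these directions are not independent of the mRNA call.

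**Figure D4:**
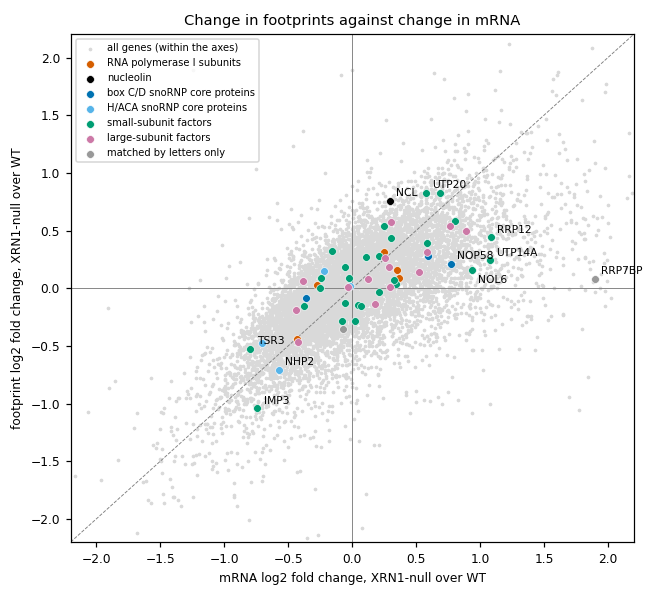
Footprint log2 fold change against mRNA log2 fold change (XRN1-null over WT) for the members, coloured by role, over all genes within the axes in grey. The dashed line marks equal change. RRP7BP, UTP14A, NOL6 and RRP12 lie below it on the right, while NCL and UTP20 lie above it.

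In TE, edgeR's quasi-likelihood test of the interaction called no member higher and 1 lower, where 0.0495% of all genes were higher and 1.78% lower. At an unadjusted p below 0.05 there were 4 higher and 8 lower members (8.76% and 14.6% of all genes), and DESeq2 called none higher and 2 lower (0.445% and 4.44% of all genes). The median TE change of the members was −0.07. It was 0.08 without WT Ribo-Seq replicate 2 and −0.17 without WT RNA-Seq replicate 2. With the libraries numbered 1 alone, which leave out both of these, the median was −0.035. The negative sign therefore did not require WT Ribo-Seq replicate 2. RRP7BP was the member called. Its footprints were at 80.2 and 81.3 CPM in WT and 81.0 and 90.2 CPM in XRN1-null cells, overlapping between the groups. With the rise in mRNA this gave a TE change of −1.82 ± 0.17 (FDR 8.6e-05). Footprint reads are uncertain between RRP7BP and its coding near copy RRP7A, so this value may not measure translation of RRP7BP. Without XRN1-null Ribo-Seq replicate 1 the value was −1.74 and missed the threshold (FDR 0.0055), where 0.188% of all genes were lower, and without WT Ribo-Seq replicate 1 NOL6 was called as well, where 2.28% of all genes were. Among the 54 members with a biogenesis role, none was called in either direction in this fit, which treats the 8 libraries as independent. With each RNA-Seq library paired to the Ribo-Seq library of equal genotype and number, a pairing that the labels do not state, NCL was called higher (0.48, FDR 0.0021) and NOL6, NOP58 and UTP14A lower, where 0.544% of all genes were higher and 4.3% lower.

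NOL6 and UTP14A came next, and neither passed. NOL6 footprints were at 41.7 and 54.0 CPM in WT and 55.6 and 53.4 CPM in XRN1-null cells, with overlap, and its TE value was −0.79 ± 0.16 (FDR 0.011; DESeq2 FDR 1.8e-04). UTP14A footprints were at 58.9 and 80.6 CPM in WT and 85.7 and 83.0 CPM in XRN1-null cells, with a TE value of −0.85 ± 0.21 (FDR 0.032). RRP12, whose mRNA change was close to that of UTP14A, had footprints at 57.8 and 91.2 CPM in WT and 97.1 and 112 CPM in XRN1-null cells and a TE value of −0.66 ± 0.25 (FDR 0.13). On the positive side the highest TE values belonged to UTP14C (0.48 ± 0.15, FDR 0.076), NCL (0.46 ± 0.33, FDR 0.44) and RRP15 (0.44 ± 0.13, FDR 0.056).

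Other genes of the pathway, taken as a list of 111 outside the members, gave 27 higher (24.3%) and 17 lower (15.3%) in mRNA with a median of 0.08, against 22.9% and 23.2% of all genes. By class these were 4 higher and 3 lower of 12 for RNA polymerase I transcription, 4 and 6 of 41 for the small subunit, and 19 and 8 of 58 for a class of large-subunit factors that also holds 8 snoRNP assembly factors, such as NUFIP1, RUVBL1 and NAF1. The largest rise and fall in each class were TAF1B (0.85 ± 0.10) and ZNRD1 (−0.55 ± 0.08), NOM1 (1.17 ± 0.08) and NOB1 (−0.59 ± 0.07), and EFL1 (1.63 ± 0.10) and NIP7 (−1.22 ± 0.06). In footprints 1 gene was called lower (0.9%, where 1.14% of all genes were) and none higher. It was NOB1, the nuclease that makes the final cut of the small-subunit RNA (−0.88 ± 0.14, FDR 0.0035). In TE there were 3 lower (2.7%, where 1.78% of all genes were), namely DDX51, URB1 and MDN1. They ranged from DDX51 (−0.99 ± 0.15) to MDN1 (−1.51 ± 0.15). Of the 78 ribosomal protein genes, 74 (94.9%) were called lower in mRNA, with a median of −0.53.

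Several members share genomic features that could bear on counting. By GENCODE positions, 7 of 56 members (12.5%) hold a snoRNA or scaRNA gene, compared with 3.1% of the 10052 genes matched. They are NOP56, NOP58, NCL, DKC1, NOL11, TSR1 and POLR1C, of which NOP56 and NOP58 were called higher in mRNA and the others did not pass. Exons of another annotated gene overlap 10 members on the same strand and 25 on the other strand, among them NOP9 (LTB4R2 and CIDEB), TSR3 (BAIAP3), NHP2 (RMND5B) and IMP3 (SNX33). Whether strand was used in counting is not given in the sources used here, so reads of such pairs may not be told apart. The same-strand overlaps of DKC1, NCL, NOP56 and NOP58 were with small RNA genes, and RRP7BP also overlapped another entry of its own name. The share of all genes with such overlaps was not counted.

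Promoters were searched for the E-box, CACGTG, which reads the same on both strands, because this motif is the classical link of the pathway to MYC. RefSeq promoter windows (GRCh38.p14, 250 bases before to 50 after the gene start) were matched for 47 members, and 17 (36.2%) held the motif, compared with 7.26% of 35116 promoter windows and 9.84% of 11352 windows of genes in the table. Members with the motif included 5 of the 13 matched genes whose mRNA rose (UTP14A, UTP20, NOL8, NOP2 and NOL6), 3 of the 9 that fell (TSR3, NOP10 and FBL) and 9 of the 25 that did not pass. These are matches of letters and no evidence of binding. The windows below are shown because they place the same letters in front of genes that rose (UTP14A, UTP20, NOL8) and genes that fell (NOP10, TSR3). They are printed 5′ to 3′ on the strand of the gene, with the motif in capitals. Positions are chrX:129905914-129905940 (plus) for UTP14A, chr12:101280075-101280104 (plus) for UTP20, chr9:92325351-92325380 (minus) for NOL8, chr15:34343137-34343166 (minus) for NOP10 and chr16:1351907-1351936 (minus) for TSR3. Counted from the gene start, the motif begins at −10 in UTP20, −9 in NOL8, −11 in NOP10 (with another at −170), −46 in TSR3 (with another at −62) and −241 in UTP14A.
UTP14A: accttgggcCACGTGgaaaccaggggc
UTP20: gcgccgttcttttttccgtcCACGTGaccc
NOL8: agagaggatgctccgttgggaCACGTGacc
NOP10: caggaaggaaattgacgaaCACGTGacgcg
TSR3: tgaagtgacggtCACGTGaccacggggacc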

How the data were processed

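The 8 libraries cover RNA-Seq and Ribo-Seq of HEK293T cells, WT or XRN1-null, in duplicate. According to the methods and the submitters' processing notes, reads from ribosomal RNA were filtered out with Bowtie2, and the rest were aligned to hg19 by TopHat2 and counted by QuasR. The authors deposited these as unscaled counts, 1 row per gene, beside a gene width. Genes had been kept above an expression minimum, so genes under it cannot be seen. The deposited tables of the authors' own comparisons (fold changes, p-values and TE) were not used.

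From the counts, edgeR 4.0.16 (R 4.3.3) was run with TMM factors within each assay. Genotype was tested with the quasi-likelihood test in each assay and TE as the interaction of assay and genotype over 8 libraries, with Benjamini-Hochberg adjustment (FDR) over all 10105 genes and calls at an FDR below 0.005. No row was removed or unnamed. The SE is the log2 fold change over the square root of F. Log2 values per library had 0.5 CPM added. The functions were tested on simulated counts. DESeq2 1.42.0 and other settings were alternatives, and RiboDiff was not run.

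Members and lists were chosen with earlier results of these data known. A symbol was read as a pseudogene where P and digits follow a full gene name. Roles were assigned from textbook knowledge. The members given with values in every library were, per contrast, up to 6 called genes in each direction, by size of change (for contrasts with fewer than 3 calls also the 2 of lowest FDR), and 14 genes picked for their role. Of the other biogenesis genes, the largest called rise and fall per class were named. UTP6, POLR1C and other members were named in their role group. Library values of RRP7A mRNA and of RRP7BP, RRP12 and NOL6 footprints were printed beside these, and their alternatives were not tallied. Positions came from GENCODE release 44 on GRCh37 (10052 genes matched) and promoters from RefSeq (GRCh38.p14). Without molecular identifiers, PCR copies stay in the counts. Python 3.11.15 and matplotlib 3.10.9 were used for sequences and figures.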

Additional observations from a re-analysis of the deposited data

Results flagged for a closer look

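RRP7BP stood out because its change differed between the assays, with a TE change of −1.82 in the interaction test of edgeR (FDR 8.6e-05). The mRNA change was 1.90 and the footprint value 0.08. RRP7BP is a non-coding near copy of RRP7A, whose own TE value was −0.30 (FDR 0.20). Reads are uncertain between these genes, so the TE change may not measure translation of RRP7BP.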

How the results depend on the processing

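Of the alternative values of the members given in every library, 531 kept their direction and side of the threshold, 14 lost a call, 28 gained one and 20 reversed, and no value called with all libraries was among the reversed ones. In mRNA, DKC1 was at 0.038 with library totals and 0.0051 with a minimum of 10 counts, and from −0.083 to 0.070 with 1 library left out. PES1 mRNA was at 0.022 with library totals and from −0.22 to 0.20 with 1 library left out. The RPF values then ranged from −0.044 to 0.081 for DKC1, −0.014 to 0.19 for POLR1B and −0.19 to 0.29 for PES1. The TE values ranged from −0.050 to 0.10 for DKC1 (−3.2e-04 with library totals), −0.20 to 0.32 for PES1 (−0.0070 with library totals), −0.12 to 0.36 for POLR1A, −0.43 to 0.097 for BMS1 and −0.43 to 0.13 for NOP2. Among the counts and medians, 85 stayed within 1.5 times or the replicate spread and 41 moved. All 27 mRNA calls were also made with the replicate block, with DESeq2 and with RLE factors. Leaving out 1 library each, where a lone library is assumed to vary like the other group, gave 13 to 32 members higher and 4 to 15 lower in mRNA, 0 to 16 higher and 0 to 6 lower in RPF, and 0 to 2 lower in TE. Over all genes these fits called 16.2% to 33.7% higher and 10.9% to 33.5% lower in mRNA, 0.703% to 12.7% and 0.713% to 10.8% in RPF, and 0.188% to 2.28% lower in TE. The members' medians then ranged from 0.085 to 0.25 in mRNA, from 0.065 to 0.18 in RPF and from −0.17 to 0.080 in TE, and the WT footprint to mRNA ratio from 0.18 to 0.43. Members higher in RPF numbered 1 with library totals (1.32% of all genes), 1 with DESeq2 (0.91%) and 5 at an FDR of 0.05 (7.07%), and those lower 5 at that FDR (8.38%). Members lower in TE numbered 2 with DESeq2 (4.44% of all genes), 3 at an FDR of 0.05 (6.46%) and 0 among members with a biogenesis role. The median TE change was −0.11 with library totals, −0.095 with a minimum of 10 counts and −0.041 without the 2 genes matched by letters. In settings chosen after seeing the data, libraries numbered 2 alone gave a median mRNA change of 0.058 and TE of −0.031, and libraries numbered 1 alone gave a median of 0.19 in RPF, −0.035 in TE and 0.25 in the WT ratio. The cause of these shifts was not tested. The labels do not say that equal replicate numbers mark a shared batch, and only 2 pairs exist per assay (correlation of deviations 0.19 in RNA-Seq and 0.080 in Ribo-Seq, and between the assays 0.35 in WT and 0.033 in XRN1-null cells). With the replicate block, 22 members were higher and 11 lower in mRNA (28.3% and 27.8% of all genes), 7 higher (NCL, NOC3L, NOL11, NOP2, NOP9, UTP20 and UTP6) and 2 lower (IMP3 and NHP2) in RPF (6.1% and 6.58% of all genes), and the TE median was −0.043. With RNA-Seq and Ribo-Seq libraries paired as a culture block, 1 member was higher in TE (NCL) and 4 lower (NOL6, NOP58, RRP7BP and UTP14A), with a median of −0.042. The Ribo-Seq libraries are the shallower ones, and no depth-matched comparison was run.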

Other observations

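The share of all counts held by the 56 members was 0.648% and 0.722% in the WT RNA-Seq libraries and 0.802% and 0.819% in the XRN1-null ones. In Ribo-Seq the WT libraries gave 0.631% and 0.737%, and the XRN1-null libraries 0.777% and 0.789%. In both assays WT replicate 1 had the lowest share. NOP58, one of the scaffold pair of box C/D particles, had a TE value of −0.56 ± 0.16 (FDR 0.057) and NOP56 one of −0.32 ± 0.15 (FDR 0.21), while fibrillarin had 0.27 ± 0.14 (FDR 0.27), in edgeR's quasi-likelihood test.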
